A study of Sus scrofa with 10 samples.

Results

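Genes of airway and alveolar epithelium were followed across alveolar macrophages of 5 Hampshire pigs, as a check of how much epithelial RNA the samples held. The list named 10 genes, EPCAM, SFTPA1, SFTPB, SFTPC, SFTPD, SCGB1A1, SLPI, KRT8, KRT18 and KRT19, and 9 of them carried a symbol in the platform's annotation, on 14 of the 47845 probe sets. SCGB1A1 was not analysed here, as its symbol was on no named probe set. The brightest probe set by mean over the 10 arrays stood for each gene, among 13755 named genes in all, and every other probe set of a member was also read.

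The study set non-adherent alveolar macrophages (n = 5) against adherent alveolar macrophages (n = 5) of the same animals on Affymetrix Snowball arrays, which measure pig transcripts. Per the labels, all samples were untreated at 0 h, after frozen cells had been thawed and kept overnight in medium with rhCSF-1, a macrophage growth factor. The non-adherent cells were then sorted by cytometry for large size and high granularity, whereas the labels state no sort for the adherent cells. For the adherent samples the protocol wording includes a stimulation with lipopolysaccharide and a removal of adherent cells, although their group label is untreated. The adherent arrays were taken from an earlier series, so attachment, sort and array series cannot be told apart in any difference below.

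Alveolar macrophages live on the surface of the alveolar epithelium and are collected by washing the airspaces, so that shed epithelial cells can come with them. EPCAM is an adhesion molecule of epithelial cell membranes. SFTPA1 and SFTPD encode collectins, surfactant proteins that bind microbes, and SFTPB and SFTPC encode the small hydrophobic proteins that let surfactant spread; alveolar type II cells are their main source, and club cells also make several of them. SLPI is a secreted inhibitor of serine proteases such as neutrophil elastase, known from airway secretory cells and also from neutrophils and macrophages. KRT8, KRT18 and KRT19 are keratins of simple epithelia. In the pig assembly Sscrofa11.1, KRT8 and KRT18 are adjacent, with 0 protein-coding genes between them, and SFTPA1 and SFTPD are separated by 1 gene, MBL1, which encodes another collectin.

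The 9 genes fell into 3 patterns. EPCAM was read high on all 10 arrays and was lower in non-adherent cells of every animal. SLPI was high in non-adherent cells of 4 animals and near the array median in animal 4 and in all adherent cells. The 4 surfactant proteins and 3 keratins lay from -0.92 to 1.39 log2 units against the array median in their main probe sets, and none of them passed the test between the groups. Of the 9 genes, 1 was higher and 1 lower in non-adherent cells at an adjusted p under 0.05 (limma, Benjamini-Hochberg over all 13755 genes). Over all genes 16.5% passed, 6.72% higher and 9.78% lower, against which the 2 calls among 9 members are to be read. Fewer cells of a type and less RNA per cell cannot be told apart in these bulk samples.

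**Figure D1:**
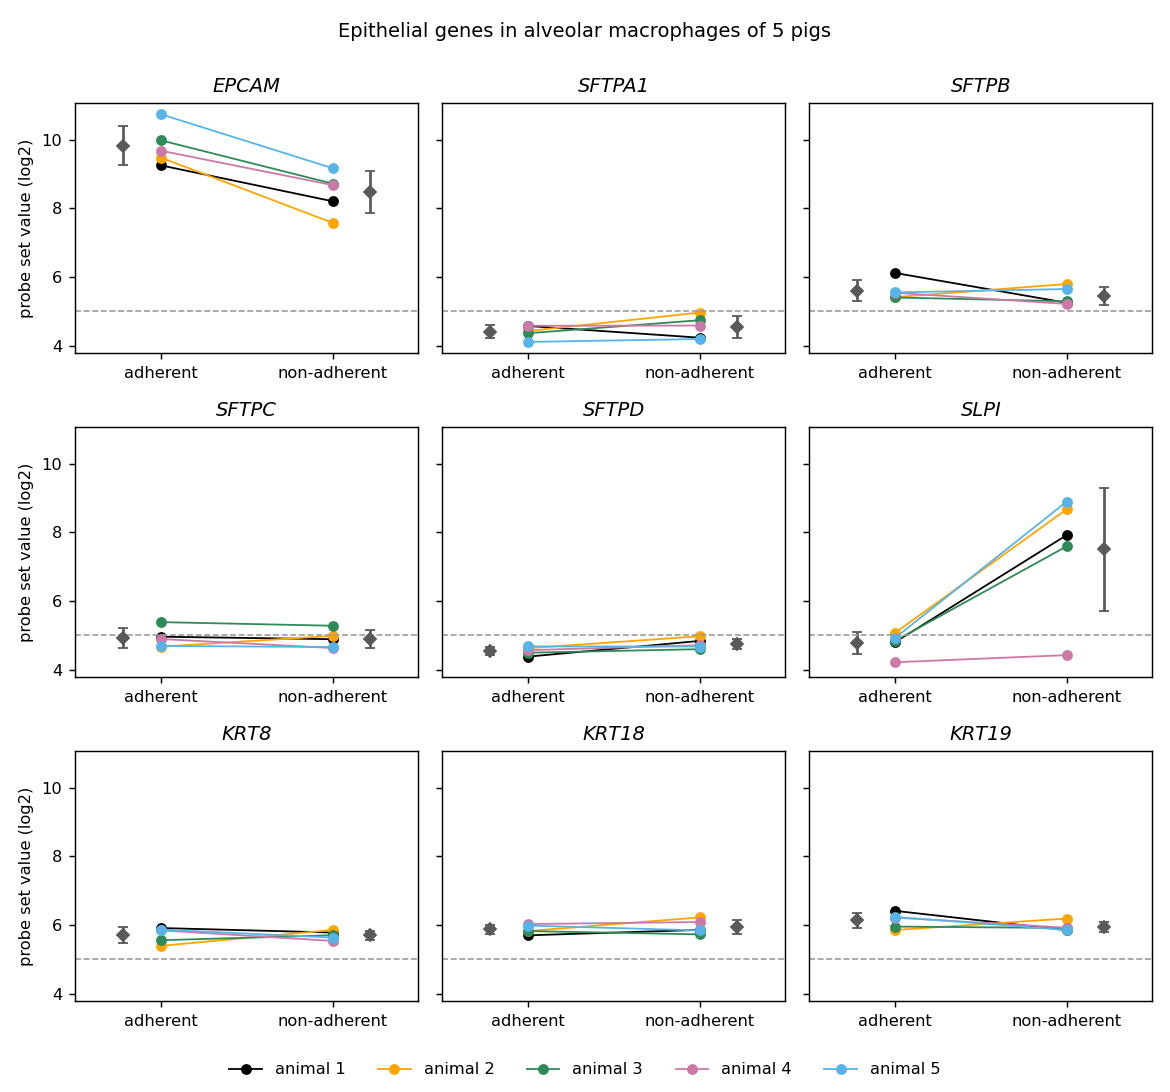
Probe set values (log2, y axis) of the 9 epithelial genes in adherent and non-adherent cells, with 1 line per animal. Grey diamonds and bars are the group mean and SD (n = 5), and the dashed line is the mean of the array medians. EPCAM slopes down in all 5 animals, SLPI rises by 2.75 to 3.96 in 4 animals and by 0.21 in animal 4, and the other 7 genes stay close to the dashed line.

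EPCAM had 1 probe set. Its log2 values were 9.25, 9.48, 9.98, 9.68 and 10.74 in adherent cells of animals 1 to 5, and 8.21, 7.58, 8.72, 8.68 and 9.17 in the non-adherent cells of the same animals. The groups did not overlap, which was also true of 15% of all genes; 8.63% of all genes were lower without overlap, as EPCAM was. Animal 5 had the highest value in both groups, followed by animals 3 and 4 in both. The mean was 9.82 ± 0.58 (SD, n = 5) in adherent and 8.47 ± 0.60 (SD, n = 5) in non-adherent cells. The log2 difference was -1.35 ± 0.32 (SE, adjusted p = 0.0162), a level 2.55-fold higher in adherent cells, and it had the same sign in 5 of 5 animals, with the largest fall in animal 2 (-1.90). Of the 13755 genes, 89 had a larger fall. Adherent animal 1 correlated least with its group, and without it the difference was -1.50 (adjusted p = 0.00729). The call was lost when both arrays of animal 3 (adjusted p = 0.0678) or of animal 4 (0.0521) were left out.

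On each array, EPCAM lay 2.49 to 5.71 log2 units above the median of all probe sets. This placed it between the 93.6th and 98.2nd percentile of probe sets on adherent arrays and between the 84.3rd and 93.3rd on non-adherent arrays. The arrays also carried 69 background probe sets, named for their GC count from 3 to 25, whose values rose with that count. EPCAM exceeded the highest of them by 0.53 to 2.32 on all 5 adherent arrays. In non-adherent cells it exceeded the highest by 0.83 to 1.17 in animals 3, 4 and 5, and its value minus the highest was -0.08 in animal 1 and -0.42 in animal 2. The GC content of the EPCAM probes is not known here, so these are bounds from the brightest background and not the background of this probe set.

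The background itself differed between the groups. The mean of the 18 background probe sets with a GC count of 20 to 25 was 7.60 to 7.99 on adherent and 7.06 to 7.24 on non-adherent arrays. That is the direction of EPCAM and opposite to that of SLPI. With this background as a covariate, the difference was -0.97 for EPCAM (adjusted p = 0.79) and 4.01 for SLPI (adjusted p = 0.577), and only 4 of 13755 genes passed. The covariate correlated with the group at -0.942 over the 10 arrays, so background and group cannot be told apart by this fit. The bacterial hybridization controls also differed: 7 of 9 were higher on non-adherent arrays without overlap, with mean differences of 0.22 to 3.26 over the 9. That is the direction of SLPI, whose difference was 2.73 in the main fit, and opposite to that of EPCAM. Control BioB-5 read 8.59 to 9.13 on non-adherent and 5.57 to 5.82 on adherent arrays, and the brighter CreX-3 12.71 to 12.97 and 12.52 to 12.74. The part of the array series in either gene was not tested.

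**Figure D2:**
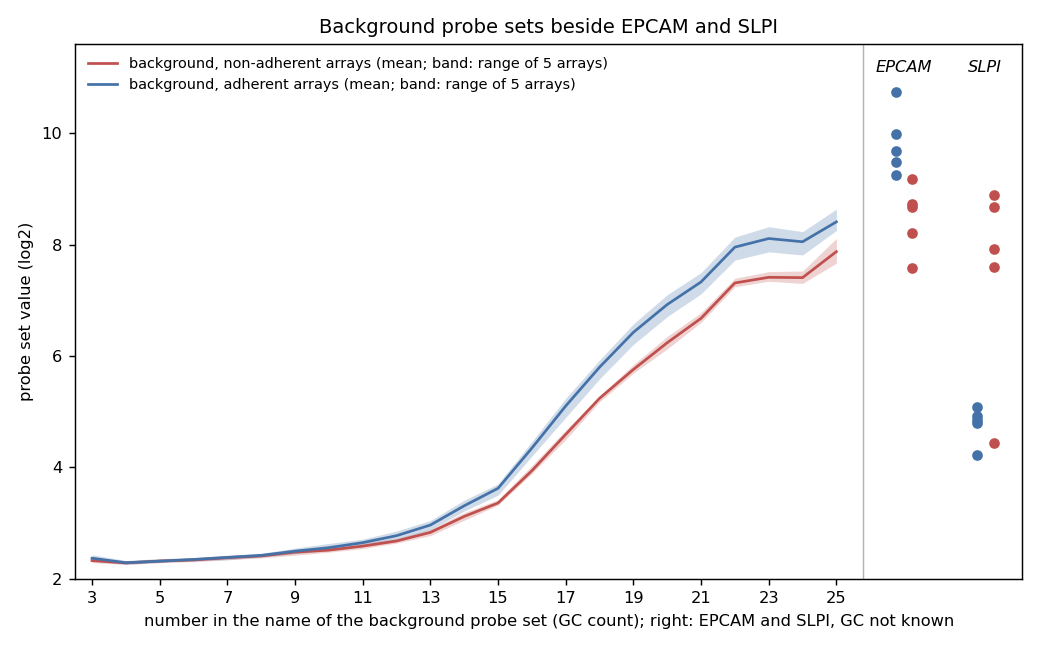
Values (log2, y axis) of the 69 background probe sets by GC count (x axis), as the mean and range of 5 arrays in each group, with the EPCAM and SLPI values of every array at the right, adherent in blue and non-adherent in red. The adherent background is the higher at large GC counts, all 5 adherent EPCAM values lie above it, and all 5 adherent SLPI values lie well below its brightest probe set.

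SLPI also had 1 probe set. Its log2 values in non-adherent cells of animals 1 to 5 were 7.92, 8.67, 7.59, 4.43 and 8.89. In adherent cells they were 4.80, 5.08, 4.84, 4.22 and 4.93. The non-adherent values of animals 1, 2, 3 and 5 lay above every adherent value, and that of animal 4 lay within the adherent range, so the groups overlapped. Animal 4 had the lowest value in both groups. The difference within the animal was 3.11, 3.59, 2.75, 0.21 and 3.96 for animals 1 to 5, higher in 5 of 5.

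The mean of SLPI was 7.50 ± 1.80 (SD, n = 5) in non-adherent and 4.77 ± 0.33 (SD, n = 5) in adherent cells. The log2 difference of 2.73 ± 0.70 (SE) passed the test (adjusted p = 0.0224). Only 6 of 13755 genes had a larger rise, and only 5 had a larger SD among the non-adherent arrays. Without the non-adherent array of animal 4 the difference was 3.49 (adjusted p = 0.00015), and without adherent animal 1 it was 2.73 (adjusted p = 0.0235). The call was lost on leaving out non-adherent animal 1, 2 or 5 or adherent animal 4 (highest adjusted p 0.0561), and on leaving out both arrays of animal 1, 2, 3 or 5 (highest 0.0925).

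Among the probe sets of its array, SLPI ranged from the 38.4th percentile (animal 4) to the 92.0th in non-adherent cells and from the 35.2nd to the 51.4th in adherent cells. It exceeded the brightest background probe set in animals 2 (by 0.67) and 5 (by 0.90) of the non-adherent group only. The neutrophil is another known source of SLPI. Of 7 measured neutrophil markers 0 passed in limma, against 16.5% of all genes, and 0 had an unadjusted p under 0.05. The summed linear level of these markers was 8104 to 10978 in non-adherent and 6418 to 12389 in adherent cells. Without adherent animal 1, CSF3R, the receptor of a neutrophil growth factor, was higher by 0.89 (adjusted p = 0.00531). The part of neutrophils in the SLPI difference was not tested. The list had a median percentile of 93.4. S100A12, a calcium-binding protein of granulocytes and monocytes, had its highest level (99.7th), and S100A8, of the same family, its lowest p (0.35 ± 0.28, adjusted p = 0.418; 98.6th). S100A9 was at the 96.2nd, CSF3R at the 93.4th and CXCR2, a chemokine receptor, at the 85.2nd, whereas the granule proteins MPO and LTF were at the 49.3rd and 29.7th.

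The surfactant collectins were near or below the array median. In its main probe set SFTPA1 read 4.24, 4.97, 4.75, 4.59 and 4.20 in non-adherent cells of animals 1 to 5 and 4.58, 4.43, 4.37, 4.58 and 4.11 in adherent cells. The groups overlapped, and the probe set was below the median on all 10 arrays. The difference was 0.13 ± 0.16 (SE, adjusted p = 0.609; 95% interval -0.22 to 0.48), and the second SFTPA1 probe set differed by -0.18 ± 0.11.

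SFTPD read 4.84, 4.98, 4.60, 4.72 and 4.68 in non-adherent cells and 4.38, 4.63, 4.50, 4.57 and 4.68 in adherent cells. It was below the median on all 10 arrays and higher in non-adherent cells of 4 animals, with overlapping groups. The difference was 0.21 ± 0.10 (SE, adjusted p = 0.16; 95% interval -0.00095 to 0.42).

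The hydrophobic surfactant proteins did not separate the groups either. SFTPB read 5.25, 5.80, 5.30, 5.22 and 5.65 in non-adherent and 6.12, 5.42, 5.41, 5.55 and 5.55 in adherent cells of animals 1 to 5. It lay above the array median on all 10 arrays, highest in adherent animal 1, and its second probe set lay below it on all 10. The main difference was -0.16 ± 0.16 (SE, adjusted p = 0.532; 95% interval -0.52 to 0.19).

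SFTPC, the surfactant protein made by type II cells alone in the mature lung, read 4.89, 4.99, 5.28, 4.63 and 4.66 in non-adherent and 4.96, 4.67, 5.39, 4.90 and 4.69 in adherent cells. Values stayed within 0.40 of the array median, and animal 3 was highest in both groups. Its difference was -0.03 ± 0.16 (SE, adjusted p = 0.923; 95% interval -0.39 to 0.32). Of its other 2 probe sets, 1 varied more, with 3.88 to 4.75 in non-adherent and 3.94 to 5.48 in adherent cells, and differed by -0.50 ± 0.29.

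The 3 keratins lay slightly above the median of all probe sets, with mean levels of 5.71, 5.91 and 6.04 that were below the median of named genes, 6.22. KRT8, the type II keratin that pairs with KRT18, read 5.54 to 5.86 in non-adherent (median 5.70) and 5.39 to 5.91 in adherent cells (median 5.84), a difference of -0.01 ± 0.12 (SE, adjusted p = 0.955; 95% interval -0.27 to 0.24). KRT18, its type I partner, read 5.73 to 6.22 and 5.70 to 6.03, a difference of 0.07 ± 0.11 (adjusted p = 0.692), and its second probe set differed by -0.15 ± 0.16. KRT19, a type I keratin of ducts and airways, read 5.85 to 6.19 and 5.85 to 6.41, a difference of -0.19 ± 0.12 (adjusted p = 0.311). All 3 were above the array median on 10 of 10 arrays, by 0.39 to 1.39, and in each the groups overlapped. The other 22 keratin genes on the arrays, a family added after values were seen, lay between the 31.2nd and 69.0th percentile. Only KRT74 of them passed the test, as did 16.5% of all genes.

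**Figure D3:**
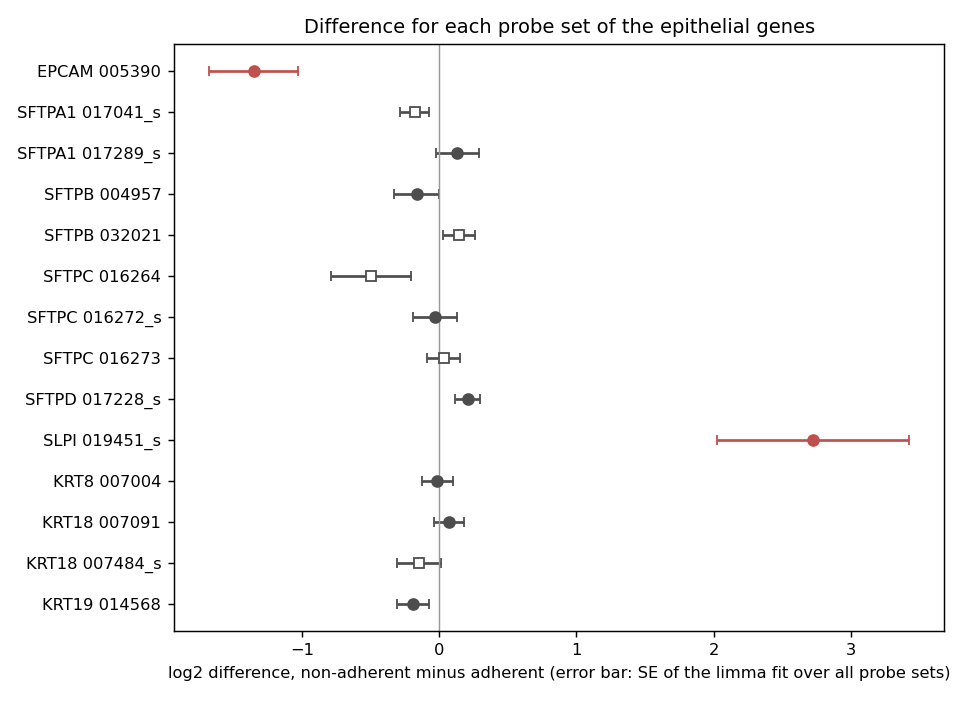
Log2 difference, non-adherent minus adherent (x axis), for each of the 14 probe sets of the 9 genes, with the SE of the limma fit over all probe sets. Filled circles are the main probe set of a gene and open squares its others; EPCAM at -1.35 and SLPI at 2.73 (red) stand apart, and the 12 others lie between -0.50 and 0.21.

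In the fit over all 47845 probe sets, where 10.8% passed, EPCAM (adjusted p = 0.0234) and SLPI (0.032) were the 2 member probe sets that passed. The lowest adjusted p among the 12 probe sets of the surfactant proteins and keratins was 0.178. In the non-adherent group, 6 of the 7 had their highest value in animal 2, the array that also held the highest value for 35.4% of 4026 genes of like level. The seventh, SFTPC, was highest in animal 3. In the adherent group SFTPB, KRT8 and KRT19 were highest in animal 1, as were 29.9% of genes of like level, SFTPA1 and KRT18 in animal 4, SFTPC in animal 3 and SFTPD in animal 5. The part of the array in these values was not tested. Over the 10 arrays the 36 pairs of members correlated at -0.65 to 0.78, and at -0.69 to 0.87 after the group means were subtracted. The highest of the latter was KRT8 with KRT19, at 0.78 and then 0.87, whereas KRT8 with its partner KRT18 was at 0.17 and 0.18. EPCAM and SLPI correlated at -0.65 and then at -0.11; arrays of one animal and of one series are not independent in these values.

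The cells themselves carried most of the macrophage transcripts read here at high levels. Of 17 measured macrophage markers, 17 had a mean level above the median of all probe sets, with a median percentile of 98.6, against 72.0% of all genes above it and a median gene at the 69.2nd, since the brightest probe set stood for each gene. ITGAM was lowest, at the 54.3rd, and MARCO next, at the 60.5th, both below the median gene. TYROBP, a signalling adaptor of myeloid receptors, was the highest, at the 99.7th. The markers CD68, CSF1R and C1QB were not analysed here. AIF1 and FCER1G passed as higher and CTSD and APOE as lower in non-adherent cells. They were among 4 higher and 3 lower of the list, against 6.72% and 9.78% of all genes. Without adherent animal 1 the counts were 8 and 4, where 9.34% of all genes were higher and 13% lower. The summed linear level of the list was 35107 to 42217 in non-adherent and 29096 to 52370 in adherent cells. The 9 epithelial members had a median percentile of 61.9, below that of all genes, and 22 genes of unrelated tissues, such as hormones, lens and muscle proteins, had a median of 52.0, with a range of 7.45 to 85.5. All 4 surfactant proteins and 3 keratins, at 39.3 to 67.0, lay inside the range of the unrelated genes, and EPCAM, at 92.6, lay above it. EPCAM was not alone there among epithelial markers. Of the further lists read below, CAV1 (94.8), LCN2 (92.3), CCDC39 (90.1), WFDC2 (89.4) and EHF (87.3) also lay above that range. The other measured genes of those lists did not, and the list medians were 42.7 to 59.7. Probe sets differ in how strongly they bind, so a percentile places a probe set on its array and does not rank one transcript against another.

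Markers of other cells were read in the same way. Of 9 T and NK cell and 5 B cell markers 0 passed in limma, with 1 and 2 at an unadjusted p under 0.05. At least 16.5% of all genes, those that passed after adjustment, also had an unadjusted p under 0.05. IL7R, a cytokine receptor of T cells, differed by -1.64 ± 0.55 (adjusted p = 0.0664), and by -2.16 without adherent animal 1 (0.00179). NKG7, a protein of cytotoxic granules, had the highest level of its list (-0.16, adjusted p = 0.399). Among B cell markers MS4A1, or CD20, differed by 0.52 ± 0.17 (adjusted p = 0.0655, and 0.0396 without adherent animal 1). CD22 went the other way, by -0.84 ± 0.34 (adjusted p = 0.116), lower in 5 of 5 animals. Without adherent animal 1 CD22 differed by -0.46 (adjusted p = 0.0164). CD79A, a subunit of the B cell receptor, was highest (-0.06, adjusted p = 0.833). Of 10 stromal and endothelial markers 2 rose, against 6.72% of all genes. COL1A2, a collagen chain, rose by 0.33 ± 0.09 (adjusted p = 0.0272) and TEK, an angiopoietin receptor, by 0.58 ± 0.16 (adjusted p = 0.0347). Each was higher in 5 of 5 animals, and COL1A1 had the highest level (-0.22, adjusted p = 0.313).

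**Figure D4:**
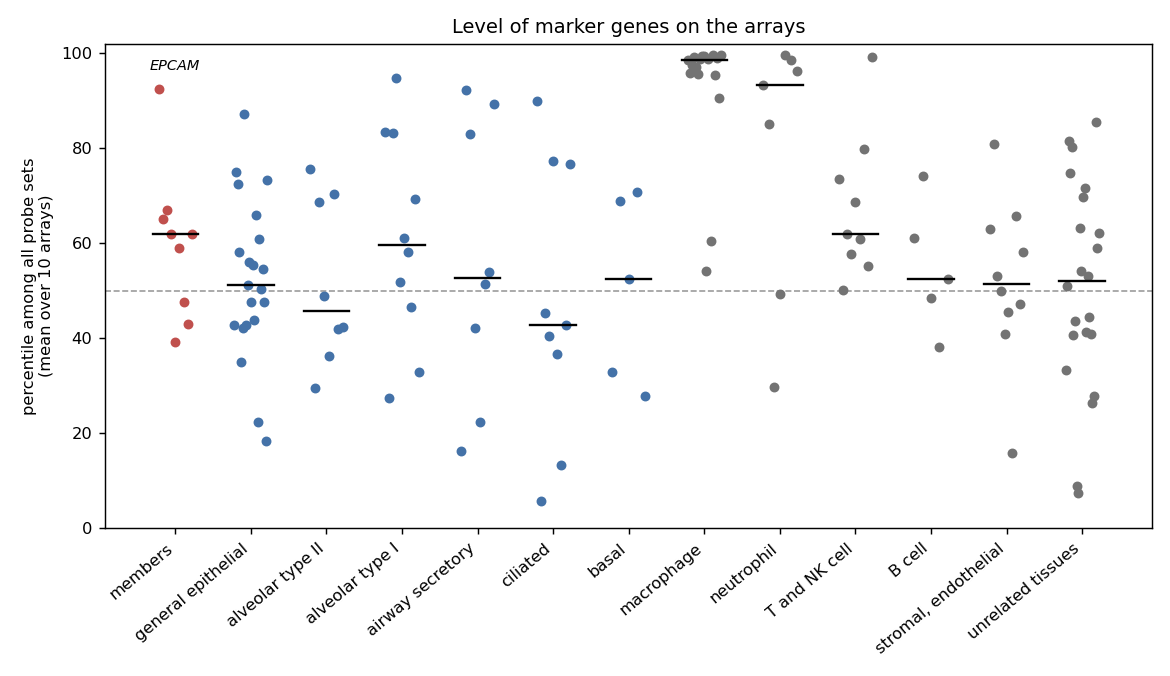
Percentile of each gene's main probe set among all probe sets (y axis, mean over 10 arrays) for the epithelial members (red), 6 epithelial marker lists (blue) and lists of other cells and tissues (grey), with the list median as a black bar and the array median dashed. Macrophage markers cluster near the top at a median of 98.6, whereas the 9 members have a median of 61.9 and the unrelated tissues 52.0.

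Further epithelial markers were read to see whether the rest of an epithelial programme stood with EPCAM and SLPI. Among 21 general epithelial genes, 1 rose, 0 fell and the median difference was -0.06, against 0.0076 over all genes. Of all genes 6.72% rose and 9.78% fell. E-cadherin, CDH1, which holds epithelial cells together, was at the 42.9th percentile and differed by -0.06 ± 0.33 (adjusted p = 0.922); its highest value, 6.13, was that of adherent animal 1, against 4.18 to 4.53 on the other adherent arrays. CLDN7, the claudin that binds EPCAM, was at the 58.1st and differed by 0.01 ± 0.13 (adjusted p = 0.98). OCLN, a tight junction protein, rose by 0.41 ± 0.12 (adjusted p = 0.0397) at a low level, the 22.4th percentile; its adjusted p was 0.0621 when blocked by animal, 0.0808 on quantile-normalized arrays and 0.32 when its 3 probe sets were averaged, and the call was lost without any of 5 arrays (highest 0.0821) or without animal 2, 3, 4 or 5 (highest 0.119). EHF, an epithelial transcription factor, was the highest of the list, with 7.98 ± 0.40 against 8.30 ± 0.53 (SD, n = 5 each; adjusted p = 0.43). CDH1 and CLDN7 were picked as partners of EPCAM after their values were seen. Other genes of the list moved more without passing in limma. CLDN3 differed by -0.36 ± 0.13 (adjusted p = 0.0844) and SPINT2 by 0.28 ± 0.11 (adjusted p = 0.111). ST14 differed by -0.77 ± 0.38 (adjusted p = 0.196), lower in 5 of 5 animals, and by -0.34 without adherent animal 1 (adjusted p = 0.0571). The summed linear level of this list was 989 to 1220 in non-adherent and 1051 to 1709 in adherent cells.

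Markers of alveolar type II cells other than the surfactant proteins split, with 1 of 8 higher and 1 lower (median difference 0.02). Over all genes 6.72% were higher and 9.78% lower. LAMP3, which type II cells share with mature dendritic cells, was higher in 5 of 5 animals, with 8.32 ± 1.08 against 4.99 ± 0.23 (SD, n = 5 each) and a difference of 3.33 ± 0.42 (adjusted p = 0.000623). ABCA3, the lipid transporter that loads surfactant into lamellar bodies, was lower, with 6.37 ± 0.23 against 7.27 ± 0.60 (SD, n = 5 each) and a difference of -0.89 ± 0.25 (adjusted p = 0.0338). Its highest value, 8.27, was that of adherent animal 1, and without that array the difference was -0.64 (adjusted p = 0.00908). The ABCA3 call was lost when its 2 probe sets were averaged (-0.28, adjusted p = 0.215), without any of 6 arrays (highest 0.0795) and without animal 3, 4 or 5 (highest 0.0871). With high-GC background as a covariate the sign of ABCA3 turned (0.28, adjusted p = 0.922 in limma). The summed level of this list was 424 to 1088 in non-adherent and 326 to 532 in adherent cells.

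Of 10 alveolar type I markers, 1 rose and 2 fell (median difference -0.0039), against 6.72% and 9.78% of all genes. AQP5, a water channel, differed by -0.75 ± 0.16 (adjusted p = 0.0101), with 7.13 to 7.35 in non-adherent and 7.65 to 8.59 in adherent cells, the highest again in adherent animal 1. It was -0.59 without that array (adjusted p = 0.0023) and -0.47 when its 2 probe sets were averaged (0.019), and its call was lost without animal 5 (0.0597). PDPN, a mucin-like membrane protein that macrophages can also make, differed by -0.64 ± 0.20 (adjusted p = 0.0485). CAV1, the coat protein of caveolae, was the highest of the list and differed by 0.41 ± 0.12 (adjusted p = 0.0376). Without any of 8 arrays the calls of PDPN (highest adjusted p 0.104) and CAV1 (0.0873) were lost. With centred arrays (0.0508 and 0.0705) and the mean of probe sets (0.116 and 0.0886) PDPN and CAV1 did not pass, and PDPN did not after quantile normalization (0.0645). With high-GC background as a covariate the sign of CAV1 turned (-0.11, adjusted p = 0.935 in limma). Leaving out both arrays of animal 3, 4 or 5 ended both calls, as did animal 1 for CAV1 (highest 0.17 for PDPN and 0.142 for CAV1). The summed level was 1343 to 1575 in non-adherent and 1338 to 1492 in adherent cells. Beside these falls and that of ABCA3, 1 of the 22 genes of unrelated tissues also fell: CRYAA, a lens protein, differed by -0.68 ± 0.19 (adjusted p = 0.0354), lower in 4 of 5 animals. PRM1, a sperm protein and the highest of those genes, differed by -0.0089 ± 0.15 (adjusted p = 0.976).

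The airway lists gave no calls in the unblocked fit. Of 8 secretory, 9 ciliated and 5 basal markers, 0 passed in limma at an adjusted p under 0.05, and at an unadjusted p under 0.05 there were 1, 2 and 1. The share of all genes at that unadjusted threshold was at least the 16.5% that passed after adjustment. PIGR, which carries antibodies across airway epithelium, came closest in the secretory list, with a difference of 0.28 ± 0.10 (adjusted p = 0.0726), and passed with the animal as a random effect (0.0473). LCN2, a siderophore-binding protein also made by myeloid cells, was the highest of it and differed by 0.16 ± 0.30 (adjusted p = 0.754). In the ciliated list HYDIN, a protein of the ciliary axoneme, had the lowest p (0.21 ± 0.08, adjusted p = 0.0893), at the 36.8th percentile. FOXJ1, at the 77.4th, went the other way, by -0.44 ± 0.17 (adjusted p = 0.105), lower in 5 of 5 animals. CCDC39, an axonemal assembly factor, had the highest level of the list (adjusted p = 0.376). In the basal list TP63, the basal cell transcription factor, had the lowest p (0.39 ± 0.14, adjusted p = 0.0831; 0.0367 when its 3 probe sets were averaged and 0.0366 without non-adherent animal 4), and NGFR, a neurotrophin receptor, the highest level (adjusted p = 0.972).

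**Figure D5:**
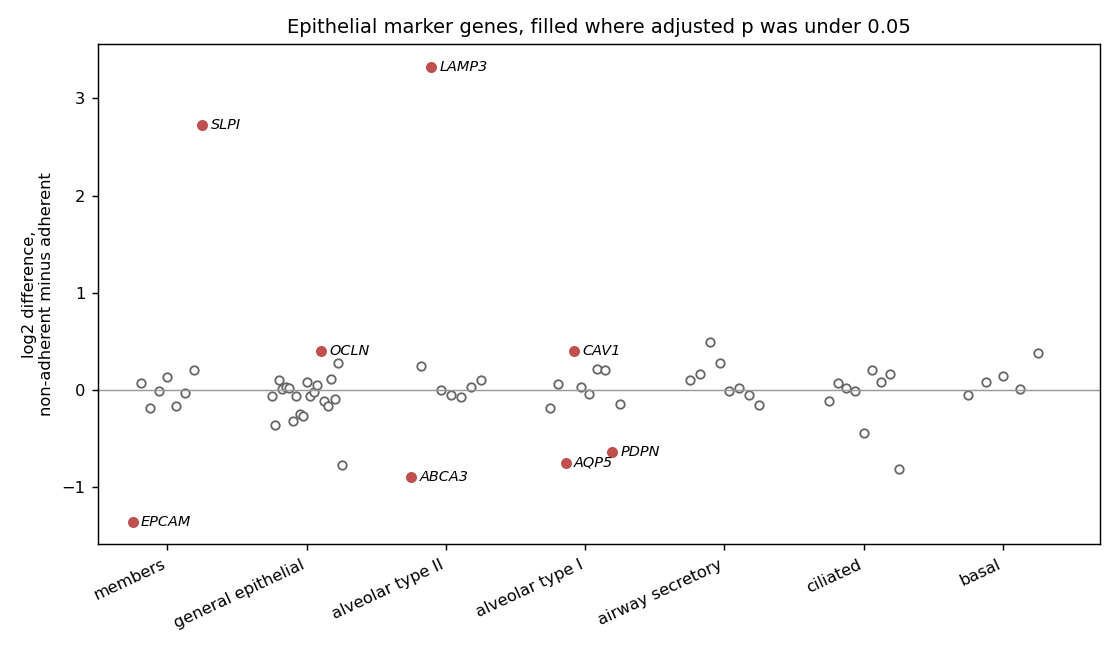
Log2 difference, non-adherent minus adherent (y axis), of each measured gene of the members and of 6 epithelial marker lists (x axis); filled red points passed at an adjusted p under 0.05 in the limma fit. SLPI (2.73) and LAMP3 (3.33) lie far above 0, EPCAM (-1.35), ABCA3, AQP5 and PDPN below it, and most of the other genes near it.

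Genes that work with the members were read in the same fit. Among 11 protease inhibitors and related genes, 1 rose and 1 fell (median difference -0.01), against 6.72% and 9.78% of all genes. SERPINB9, which inhibits granzyme B, was higher by 1.37 (adjusted p = 0.0202), which no longer passed when the non-adherent array of animal 2 or the adherent array of animal 5 was removed (highest 0.0509), or both arrays of animal 2, 3 or 5 (highest 0.0714). CSTB, an inhibitor of cysteine cathepsins, was lower by 0.65 on the log2 scale (adjusted p = 0.00641). PI3, or elafin, the closest functional relative of SLPI, was at the 41.2nd percentile and differed by 0.24 (adjusted p = 0.123). Elastase and cathepsin G, protease targets of SLPI, were not analysed here, and neither was proteinase 3. SERPINB1, an elastase inhibitor, passed without adherent animal 1 (0.57, adjusted p = 0.0188) and not with it (0.37, 0.283). Of the 7 other WFDC genes, which share the whey acidic protein domain of SLPI, 0 passed, against 16.5% of all genes.

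Among 10 other collectins and receptors of surfactant collectins, 0 rose and 3 fell (median difference -0.09), against 6.72% and 9.78% of all genes. SIRPA, an inhibitory receptor to which SP-A and SP-D bind, differed by -1.09 (adjusted p = 0.000898); averaging its 2 probe sets gave -0.33 (0.505). TLR4, the lipopolysaccharide receptor, differed by -0.34 (adjusted p = 0.0205). Its adjusted p was 0.0563 when blocked by animal and 0.0502 on quantile-normalized arrays. When its 9 probe sets were averaged its sign turned (0.03, adjusted p = 0.73). The call was lost without animal 2, 3 or 5 (highest 0.0996). COLEC11, a soluble collectin, was the third that fell, by 0.30 on the log2 scale (adjusted p = 0.0294). MRC1, the mannose receptor, had the highest level of the list and did not pass (0.25, adjusted p = 0.415), but averaging its 3 probe sets gave 1.39 (adjusted p = 0.00287).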

How the data were processed

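RNA of 10 samples, 5 non-adherent and 5 adherent, was measured on Affymetrix Snowball arrays. The deposited values are log2 probe set signals; RMA and Partek are named in the submitters' processing notes without a version, and a joint normalization of the 2 sets of arrays is neither stated nor denied by the labels. Array medians were 4.97 to 5.09. The number of arrays limits the precision.

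The platform annotation gave 1 symbol to 26426 of the 47845 probe sets, several to 0 and none to 21419. Each of 13755 genes took its probe set with the highest mean. Non-adherent and adherent cells were compared with limma 3.58.1 (R 4.3.3, lmFit and eBayes, two-sided) without a block, with Benjamini-Hochberg adjustment over all genes or all probe sets and a threshold of 0.05. SE and intervals come from this fit. In simulated data with 200 changed genes among 13755, the fit recovered 36.0% of changes of 0.5, 80.88% of 1 and 94.74% of 2 (log2), and 8 of 144 calls were unchanged genes. The simulated noise was normal and independent between arrays, without shared animals, array series or an outlying array, whereas 2270 genes were called in the real data. These rates are therefore not the error rates of the real comparison.

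Same-numbered samples came from the same pig, per the labels; their deviations from the group means correlated at 0.298 on average, against -0.0715 between animals. The mean correlation with the own group was 0.952 for adherent animal 1 and 0.978 to 0.979 for the other adherent arrays. Alternatives were the animal as a block or random effect, each array or animal left out, centred or quantile-normalized arrays, array weights, the mean of probe sets and, chosen after seeing the data, high-GC background as a covariate.

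Members and lists were chosen with earlier results of these data known. Besides the members, the genes named from each list were up to 2 that passed in each direction by lowest p, or the lowest p where none passed, and the highest level; for SLPI, those of most similar pattern. Others named were chosen after their values were seen.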

Additional observations from a re-analysis of the deposited data

Results flagged for a closer look

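Single arrays stood apart in 3 of 28 tests of the highest and lowest value in a group, where chance gives about 1.4. SFTPB was 6.12 in adherent animal 1, the array with the lowest correlation with its group, and the next adherent value was 5.55. KRT19 was 6.19 in non-adherent animal 2, against 5.92 for the next. The second SFTPA1 probe set was 4.78 in adherent animal 3, against 4.48 for the next.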

How the results depend on the processing

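With the replicate block (the animal as a block), EPCAM kept its call (-1.35, adjusted p = 0.00176), as did SLPI (2.73, adjusted p = 0.00978), and 2506 genes passed against 2270. Among the members and the genes named by rule from the epithelial, protease inhibitor and collectin lists, the block ended the calls of OCLN (0.0621) and TLR4 (0.0563). For other named genes that passed, such as AIF1, FCER1G, CTSD, APOE, COL1A2, TEK, CRYAA and COLEC11, the block was not examined here. Neither were their fits with arrays or animals left out, except that without adherent animal 1. On leaving out arrays or animals, 1119 to 3067 genes passed, and 0 to 2 member genes and 0 to 2 member probe sets. With high-GC background as a covariate, 4 genes, 0 member genes and 0 member probe sets passed. Higher and lower calls were 925 and 1345, 752 and 1439 once arrays were centred, and 1038 and 1169 once quantile-normalized. Against the median of named genes, 1 member was above it, against 6 above that of all probe sets. Without adherent animal 1, 22.3% of all genes passed, against 16.5% with it. In the lists, 12 macrophage, 1 neutrophil, 1 T and NK, 2 B cell and 2 unrelated-tissue genes then passed, against 7, 0, 0, 0 and 1. Protease inhibitors had 2 higher and 1 lower, against 1 and 1, and alveolar type I markers 0 and 2, against 1 and 2.

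Directions of some differences turned. Most were small in the main fit, but ABCA3, CAV1 and TLR4 had passed there. Leaving out arrays or animals gave -0.30 to 0.011 for SFTPB, -0.13 to 0.085 for SFTPC, -0.13 to 0.060 for KRT8, -0.0057 to 0.13 for KRT18, -0.040 to 0.46 for LCN2 and -0.058 to 0.044 for NGFR. With the background covariate the values were -0.13 for SFTPA1, 0.28 for SFTPB, 0.63 for SFTPC, -0.089 for SFTPD, 0.45 for KRT8, -0.39 for KRT18, 0.14 for KRT19, 0.28 for ABCA3, -0.11 for CAV1 and -0.27 for NGFR. With the mean of probe sets they were -0.023 for SFTPA1, -0.035 for KRT18, 0.054 for CCDC39 and 0.033 for TLR4. KRT8 was 0.012 after quantile normalization and 0.0041 with array weights, and NGFR -0.019 with centred arrays and -0.014 with array weights. The cause was not tested.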

Other observations

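The non-adherent SLPI value of animal 4, 4.43, lay 0.709 of the group's range from the next value, 7.59, just under the limit of 0.71 for calling 1 of 5 arrays apart. Over the 10 arrays, the genes whose log2 values correlated best with SLPI were ENAH (0.925), THBS1 (0.891), ACRBP (0.890), AFMID (0.882) and TAAR2 (0.880). The choice, here and below, was among genes with a mean above the median of all probe sets, leaving out locus and clone identifiers. In non-adherent cells THBS1, a secreted matrix protein, read 8.92, 8.89, 8.92, 7.73 and 9.12 in animals 1 to 5, also lowest in animal 4, and 7.53 to 8.35 in adherent cells. After the group means were subtracted, the best were MTNR1B (0.959), TRERF1 (0.916), VWA5B1 (0.907), HECTD2 (0.895) and BHLHE22 (0.893). The 10 points share animals and array series.

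TPPP3, a marker of ciliated cells, read 11.40 in adherent animal 1 and 6.34 to 6.85 on the other adherent arrays, a gene singled out after its values were seen.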
